A study of Mus musculus with 12 samples.

Results

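The glycolysis and glycogen genes described here are 33 genes for glucose and lactate transport, the steps of glycolysis, the fate of pyruvate and the turnover of glycogen, taken by symbol from a table of 56791 symbols. They cover 34 of its 56941 gene identifiers, because Aldoa has 2, whose counts were summed. The study set an optogenetic C2C12 line against the unmodified line. C2C12 is a mouse muscle precursor line whose cells fuse into multinucleated myotubes once growth serum is withdrawn. The ChR2 group was 6 wells of the line labelled ChR2::tdTomato, named for ChR2, a cation channel opened by light, and for the red fluorescent protein tdTomato. The wild-type group was 6 wells of the line labelled Wild-Type. Wells of both lines were grown on fibrin gel 1 mm thick made with 8 mg/mL fibrinogen, with a growth phase followed by 6 days in high-glucose differentiation medium. That medium held horse serum, IGF-1 and aminocaproic acid, an inhibitor of fibrin breakdown. No light stimulation is described for them, and the promoter of the transgene, and whether the line is 1 clone, are not given in the sources used here. Whether wells of 1 line were separate cultures is not stated, and p-values therefore measure the spread between these wells, which may be technical.

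Glycolysis splits glucose into pyruvate and yields ATP without oxygen. Lactate dehydrogenase turns pyruvate into lactate, which monocarboxylate transporters carry out of the cell, and pyruvate dehydrogenase kinases hold pyruvate back from the mitochondrion. Muscle stores glucose as glycogen, which glycogen synthase builds and glycogen phosphorylase breaks down, and differentiating muscle uses its own isoforms for several steps, among them Pfkm, Pgam2, Eno3 and Pygm. Many genes of glycolysis are known targets of the hypoxia-inducible factor HIF, which binds the core letters ACGTG or GCGTG.

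Estimated counts summed to between 7388761 and 12229458 in ChR2 wells. They summed to between 10268067 and 13628569 in wild-type wells 1, 3, 4 and 6, but to 1061068 in wild-type well 2 and 2809669 in wild-type well 5. The 7SL RNAs lack a poly(A) tail. Their share of the counts was 24.8% in wild-type well 2, 8.37% in wild-type well 5 and at most 0.0341% in any other library. The extraction protocol says that low-input samples were depleted of ribosomal RNA, without naming them. Counts of members, and the values of members called in either fit, are therefore given over all 12 libraries and over the 10 libraries without these 2 wells. Myotube markers summed to between 16148 and 21198 CPM (counts scaled to the depth of each library) in ChR2 wells and between 15107 and 30296 CPM in wild-type wells, so both lines held differentiated muscle message.

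Among the members called higher in the ChR2 line in both fits were Aldoc, Eno2, Pgk1, Pgam1 and Ldha, and none was called lower in either fit. Over 12 libraries 12 of the 33 members (36.4%) were higher in ChR2 wells and 0 lower, while 14.0% of the 13156 genes tested were called higher and 14.2% lower (quasi-likelihood test of edgeR, with p adjusted by Benjamini-Hochberg over all genes tested and called under 0.05). Over 10 libraries 21 members (63.6%) were higher and 0 lower, while 18.9% of 13471 genes were called higher and 16.4% lower. The median log2 fold change of the members, ChR2 over wild type, was 0.33 over 12 libraries and 0.47 over 10, and that of all genes was -0.02 and -0.00. All 33 members passed the filter on low counts in both fits, but Pygl did so through the ChR2 wells, and its call is no evidence of a difference. Without Pygl, 11 of 32 members (34.4%) were called higher over 12 libraries and 20 of 32 (62.5%) over 10. Among abundant genes, of at least 100 CPM, 9 of 23 members were called higher over 12 libraries, where 14.2% of such genes were. Over 10 libraries 17 of these 23 members were called, where 21.8% of such genes were. In 7 members (21.2%) every ChR2 well lay above every wild-type well, as in 8.58% of all genes tested. Against the 4 wild-type wells kept in the 10 libraries, 15 members (45.5%) were so separated, as were 13.7% of all genes. Pygl is among these 15, and its separation is no evidence either.

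The 12 members called in both fits were Gpi1, Pfkp, Pfkfb3, Aldoc, Pgk1, Pgam1, Eno1, Eno2, Ldha, Pdk1, Pygl and Gys1. A further 9 were called over 10 libraries only, namely Hk1, Hk2, Pfkl, Tpi1, Gapdh, Pkm, Slc2a1, Slc16a3 and Pygb. The other 12 were called in neither fit, and their log2 fold changes over 10 libraries were above 0 in 6 and below 0 in 6. Of 7 muscle isoforms and subunits (Pfkm, Pgam2, Eno3, Pygm, Phka1, Phkg1 and Slc2a4), 0 were called in either fit. These 7 were grouped after their values were seen, so that count is no evidence of a difference between muscle and other forms. Aldoa, the muscle aldolase, was left out of the 7 and was also called in neither fit. Gys1 and Hk2, which are also the main forms in muscle, were called. On log2(TPM + 1) over 12 libraries the median of all genes moved to 0.35 and 95.5% of calls over all genes were higher, against 49.6% on counts; 2 members were then called, both higher. In bulk RNA a smaller share of cells with a message and less message per cell cannot be told apart.

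**Figure D1:**
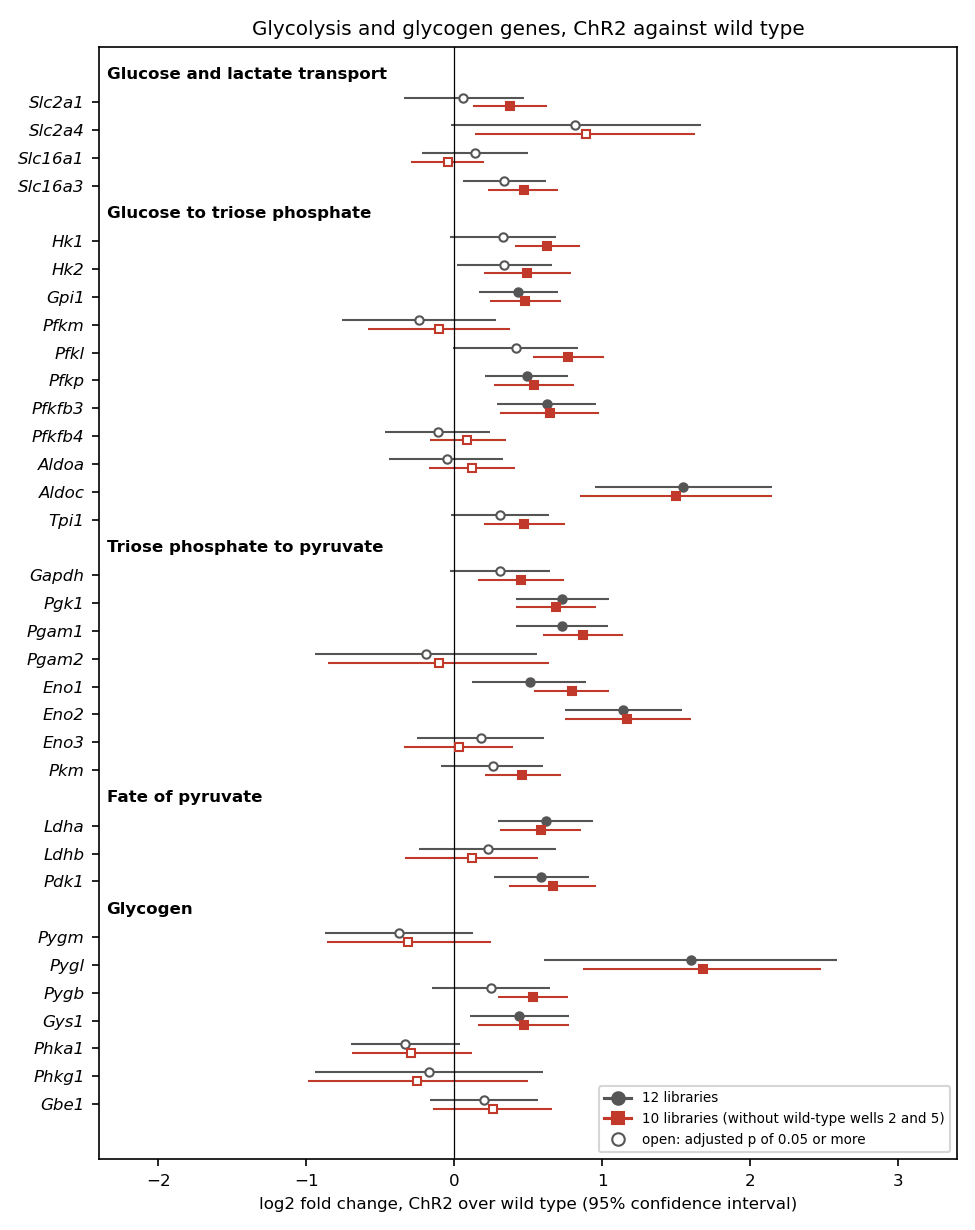
The horizontal axis gives the log2 fold change of ChR2 over wild type with its 95% confidence interval for each of the 33 members, grouped by step; circles are the fit over 12 libraries, squares that over 10, and filled symbols passed the test. The filled squares, 21 in number, all lie right of 0. Intervals cross 0 in both fits for Pfkm, Pfkfb4, Aldoa, Pgam2, Eno3, Ldhb, Slc16a1, Pygm, Phka1, Phkg1 and Gbe1. The interval of Slc2a4, also called in neither fit, crosses 0 over 12 libraries only.

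Promoter sequence is shown for 5 members to set both forms of the HIF core beside the calls, since Ldha, Pgk1 and Pgam1 were higher in ChR2 wells in both fits while Pgam2, the muscle counterpart of Pgam1, and Pygm were called in neither. The sequences are the 160 bases before the RefSeq transcription start on build GRCm38.p6, read 5′ to 3′ on the gene's strand. Capitals mark ACGTG, its complement CACGT, or both where they overlap as CACGTG, and likewise GCGTG or its complement CACGC.
Ldha (chr7:46845644-46845803, plus strand): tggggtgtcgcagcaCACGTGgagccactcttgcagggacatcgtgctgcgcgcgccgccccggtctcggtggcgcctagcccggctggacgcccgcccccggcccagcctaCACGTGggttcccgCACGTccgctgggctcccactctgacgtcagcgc
Pgk1 (chrX:106186940-106187099, plus strand): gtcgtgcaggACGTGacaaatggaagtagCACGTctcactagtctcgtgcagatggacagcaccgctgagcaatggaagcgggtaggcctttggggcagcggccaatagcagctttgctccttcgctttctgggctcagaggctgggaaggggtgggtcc
Pgam1 (chr19:41911711-41911870, plus strand): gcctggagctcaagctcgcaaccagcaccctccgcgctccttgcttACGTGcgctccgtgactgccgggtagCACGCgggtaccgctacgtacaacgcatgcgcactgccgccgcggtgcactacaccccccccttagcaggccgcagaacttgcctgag
Pgam2 (chr11:5803797-5803956, minus strand): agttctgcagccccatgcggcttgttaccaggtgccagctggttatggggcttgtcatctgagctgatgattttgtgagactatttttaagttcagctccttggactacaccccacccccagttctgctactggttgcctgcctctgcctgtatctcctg
Pygm (chr19:6384248-6384407, plus strand): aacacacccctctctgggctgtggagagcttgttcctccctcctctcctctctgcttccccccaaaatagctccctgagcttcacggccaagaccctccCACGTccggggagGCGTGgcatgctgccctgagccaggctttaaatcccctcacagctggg

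The Ldha stretch, from 1 of the 2 Ldha windows in the table, holds ACGTG in 3 places, that of Pgk1 in 2, those of Pgam1 and Pygm in 1 and that of Pgam2 in 0. GCGTG stands once in the stretches of Pgam1 and of Pygm and in 0 places in those of Ldha, Pgk1 and Pgam2. Promoter windows were found for 32 of the 33 members. Searched on both strands over the 250 bases before the start, ACGTG was present in 14 of these 32 members (43.8%), in 18.5% of 27025 genes with a window and in 25.5% of the 9814 of them that were tested. It was present in 10 of the 21 members called over 10 libraries (47.6%) and in 4 of the 11 called in neither fit with a window (36.4%). GCGTG was present in 61.9% of these called members, in 63.6% of those called in neither and in 50.7% of tested genes. Pygl, whose call is no evidence of a difference, holds both ACGTG and GCGTG and is counted in both shares of the called members. The palindrome CACGTG, which contains ACGTG, was present in 4 of 32 members (12.5%) and in 9.99% of tested genes. The median count of CG pairs, taken in the window of each gene richest in them, was 17 in members called over 10 libraries and 10 in those called in neither. It was 6 over all 27025 genes with a window, tested or not. No value was computed for tested genes alone, so the 6 is not a like baseline. Such a match describes letters only and is no evidence of binding.

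Transport showed small differences, and none of its 4 members was called over 12 libraries. Slc2a1 encodes the glucose transporter GLUT1 of most growing cells. Its level was lowest at 190, median 217 and highest at 231 CPM in ChR2 wells, against 120, 187 and 336 CPM in wild-type wells. The highest wild-type value was that of well 5, and without wells 2 and 5 the wild-type wells ran from 120 to 197 CPM, overlapping the ChR2 wells. The log2 fold change was 0.06 ± 0.19 (SE) over 12 libraries (adjusted p = 0.836) and 0.38 ± 0.12 over 10 (adjusted p = 0.023). Slc16a3 encodes MCT4, the monocarboxylate transporter that exports lactate from glycolytic muscle. It had 147, 154 and 168 CPM as lowest, median and highest in ChR2 wells, against 89.0, 127 and 165 CPM in wild-type wells. Wild-type well 2 held the 165, and the other wild-type wells all lay below every ChR2 well. For Slc16a3 the log2 fold change was 0.34 ± 0.13 (adjusted p = 0.0678) over 12 libraries and 0.47 ± 0.11 (adjusted p = 0.00519) over 10. Slc16a1, which encodes MCT1, averaged 163 ± 13.0 CPM in ChR2 wells and 146 ± 44.1 CPM in wild-type wells (SD, n = 6 each), with an edgeR adjusted p of 0.574. Slc2a4, the insulin-responsive GLUT4 of muscle, was low, at 4.04 ± 1.94 CPM in ChR2 wells and 2.91 ± 2.57 CPM in wild-type wells (SD, n = 6 each; edgeR adjusted p = 0.134, and 0.0603 over 10 libraries). ChR2 wells 5 and 6 held its 7.19 and 5.71 CPM, above the 2.47 to 3.14 CPM of the other ChR2 wells, and it was called higher only when wild-type well 2 was left out (edgeR adjusted p = 0.049).

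The steps from glucose to triose phosphate rose in 4 of 11 members over 12 libraries and in 8 of 11 over 10, where 14.0% and 18.9% of all genes did. Hexokinases trap glucose by phosphorylation. Hk1 had 207, 244 and 271 CPM as lowest, median and highest in ChR2 wells, against 143, 174 and 289 CPM in wild-type wells. Wild-type wells 2 and 5, at 239 and 289 CPM, lay within and above the ChR2 range, and the other wild-type wells lay at or under 177 CPM, below it. The log2 fold change was 0.33 ± 0.17 (SE; adjusted p = 0.159) over 12 libraries and 0.63 ± 0.10 (adjusted p = 0.000498) over 10. Hk2, the hexokinase typical of muscle and of growing cells, had 183, 244 and 276 CPM in ChR2 wells, against 146, 186 and 236 CPM in wild-type wells, and the groups overlapped in both fits. For Hk2 the log2 fold change was 0.34 ± 0.15 (adjusted p = 0.107) over 12 libraries and 0.49 ± 0.14 (adjusted p = 0.0118) over 10. Gpi1, which turns glucose 6-phosphate into fructose 6-phosphate, had 872, 1001 and 1075 CPM in ChR2 wells, against 605, 760 and 798 CPM in wild-type wells, with no overlap. It was 1.35-fold higher over 12 libraries (log2 0.43 ± 0.12, adjusted p = 0.0168) and 1.39-fold over 10 (adjusted p = 0.00459).

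Phosphofructokinase commits sugar to glycolysis, and its 3 genes behaved unalike. Pfkm, the muscle subunit, averaged 597 ± 102 CPM in ChR2 wells and 708 ± 302 CPM in wild-type wells (SD, n = 6 each), a log2 difference of -0.24 ± 0.24 (SE; edgeR adjusted p = 0.486). Pfkl, the liver subunit, had 281, 329 and 373 CPM as lowest, median and highest in ChR2 wells, against 155, 217 and 428 CPM in wild-type wells. Wild-type well 2 held the 428, and wells 1, 3, 4 and 6 lay at or under 225 CPM, below every ChR2 well. The log2 fold change of Pfkl was 0.42 ± 0.20 (adjusted p = 0.13) over 12 libraries and 0.77 ± 0.11 (adjusted p = 0.000229) over 10. Pfkp, the platelet subunit, had 198, 236 and 245 CPM in ChR2 wells, against 129, 166 and 202 CPM in wild-type wells, where only ChR2 well 4 reached into the wild-type range. It was 1.41-fold higher over 12 libraries (log2 0.49 ± 0.13, adjusted p = 0.0124) and 1.46-fold over 10 (adjusted p = 0.00461). Pfkfb3 makes fructose 2,6-bisphosphate, the activator of phosphofructokinase. It had 49.7, 59.7 and 69.5 CPM in ChR2 wells, against 28.6, 35.6 and 54.1 CPM in wild-type wells, of which well 4 was the highest and overlapped. Pfkfb3 was 1.55-fold higher over 12 libraries (log2 0.63 ± 0.16, adjusted p = 0.00905) and 1.57-fold over 10 (adjusted p = 0.006). Its relative Pfkfb4 averaged 14.0 ± 1.02 CPM in ChR2 wells and 15.7 ± 4.55 CPM in wild-type wells (SD, n = 6 each; edgeR adjusted p = 0.656).

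Aldolase splits fructose 1,6-bisphosphate. Aldoc, the isoform best known from brain, had 11.0, 11.9 and 15.9 CPM as lowest, median and highest in ChR2 wells, against 1.89, 4.19 and 7.89 CPM in wild-type wells. Every ChR2 well lay above every wild-type well. Aldoc was 2.93-fold higher over 12 libraries (log2 1.55 ± 0.28, adjusted p = 0.00127) and 2.82-fold over 10 (adjusted p = 0.00235). Aldoa, the muscle aldolase and the main one here, averaged 3319 ± 294 CPM in ChR2 wells and 3445 ± 943 CPM in wild-type wells (SD, n = 6 each; edgeR adjusted p = 0.86, and 0.529 over 10 libraries). Tpi1, which interconverts the triose phosphates, had 1273, 1532 and 1629 CPM in ChR2 wells, against 852, 1226 and 1586 CPM in wild-type wells. Well 2 held the 1586 and well 5 held 1328, and the other wild-type wells lay below every ChR2 well. The log2 fold change of Tpi1 was 0.31 ± 0.15 (adjusted p = 0.151) over 12 libraries and 0.47 ± 0.13 (adjusted p = 0.0107) over 10.

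**Figure D2:**
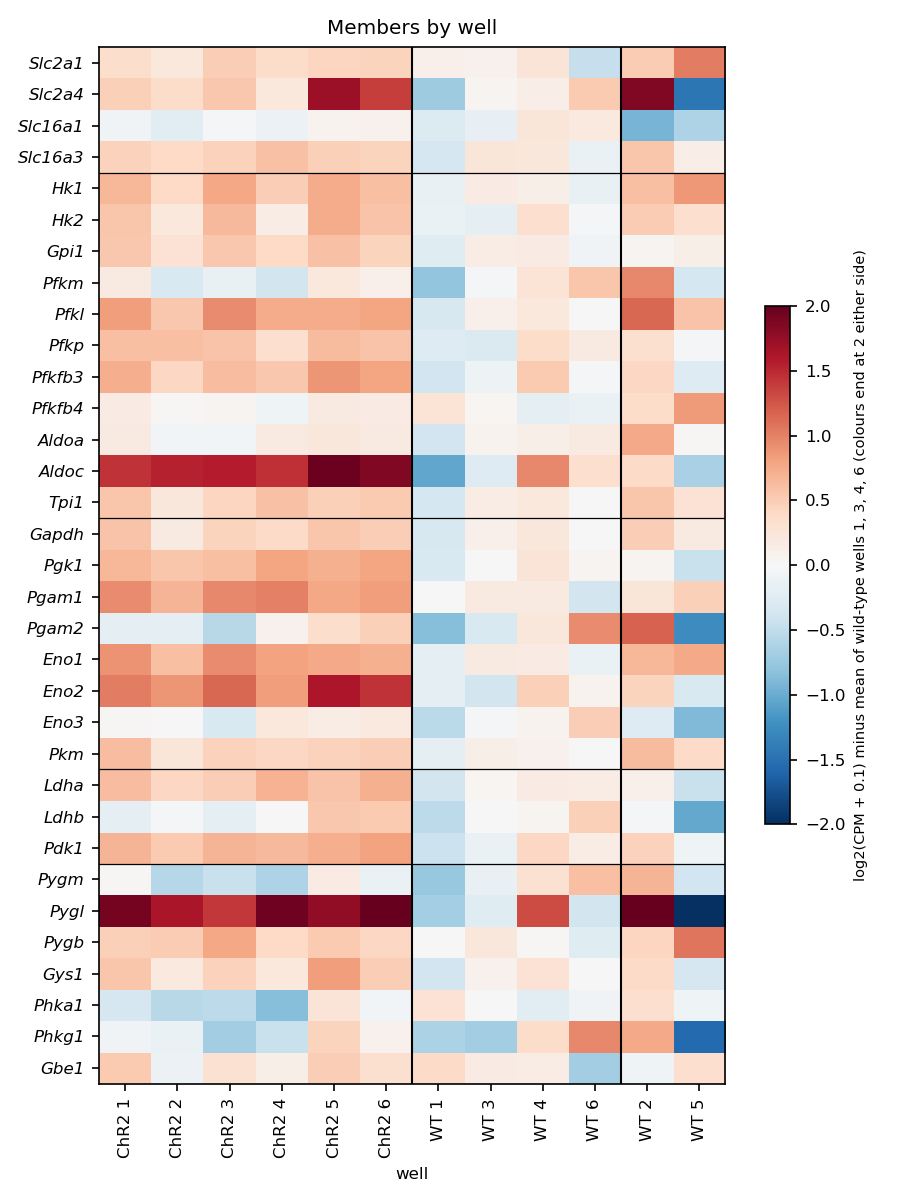
Each row is a member and each column a well, ChR2 wells at the left, then wild-type wells 1, 3, 4 and 6, then wild-type wells 2 and 5; colour gives log2(CPM + 0.1) minus the mean of wild-type wells 1, 3, 4 and 6, and horizontal lines separate transport, glucose to triose phosphate, triose phosphate to pyruvate, fate of pyruvate and glycogen. Aldoc, Pygl and Eno2 are darkest across the 6 ChR2 wells, and wild-type well 2 is red for Pfkm, Pgam2 and Pygm, where well 5 is blue.

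The steps from triose phosphate to pyruvate, which yield ATP, rose in 4 of 8 members over 12 libraries and in 6 of 8 over 10. Of all genes 14.0% and 18.9% rose. Gapdh, which oxidises glyceraldehyde 3-phosphate, had 3328, 4098 and 4401 CPM as lowest, median and highest in ChR2 wells, against 2351, 3254 and 4166 CPM in wild-type wells, and the groups overlapped in both fits. For Gapdh the log2 fold change was 0.31 ± 0.16 (SE; adjusted p = 0.16) over 12 libraries and 0.45 ± 0.14 (adjusted p = 0.0202) over 10. Pgk1, the first ATP-forming enzyme of the chain, had 2371, 2590 and 2787 CPM in ChR2 wells, against 1183, 1640 and 1917 CPM in wild-type wells. Its groups were apart, with wild-type well 4 the highest of its line. Pgk1 was 1.66-fold higher over 12 libraries (log2 0.73 ± 0.15, adjusted p = 0.00252) and 1.61-fold over 10 (adjusted p = 0.00103).

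Phosphoglycerate mutase has a general form, Pgam1, and a muscle form, Pgam2. Pgam1 had 819, 946 and 1023 CPM as lowest, median and highest in ChR2 wells, against 394, 580 and 708 CPM in wild-type wells, with no overlap. It was 1.66-fold higher over 12 libraries (log2 0.73 ± 0.14, adjusted p = 0.00228) and 1.83-fold over 10 (adjusted p = 0.000191). A named Pgam1 pseudogene held 1.21% of the Pgam1 count. Pgam2 had 119, 170 and 244 CPM in ChR2 wells, against 72.8, 173 and 397 CPM in wild-type wells, whose range enclosed that of the ChR2 wells. Its log2 fold change was -0.19 ± 0.35 (SE; edgeR adjusted p = 0.723), with a 95% interval of -0.94 to 0.56.

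Enolase, which makes phosphoenolpyruvate, has 3 genes among the members. Eno2, the form named for neurons, had 145, 173 and 249 CPM as lowest, median and highest in ChR2 wells, against 62.9, 78.5 and 113 CPM in wild-type wells. Every ChR2 well was above every wild-type well, and ChR2 wells 5 and 6 were the highest. Eno2 was 2.21-fold higher over 12 libraries (log2 1.14 ± 0.18, adjusted p = 0.00061) and 2.26-fold over 10 (adjusted p = 0.000853). Eno1, the general form, had 1462, 1663 and 1857 CPM in ChR2 wells, against 846, 1085 and 1631 CPM in wild-type wells. Wild-type wells 2 and 5 held 1541 and 1631 CPM, inside the ChR2 range, and the other wild-type wells were at or below 1091 CPM. Its log2 fold change was 0.51 ± 0.18 (adjusted p = 0.0464) over 12 libraries and 0.80 ± 0.12 (adjusted p = 0.000258) over 10. The 12-library call of Eno1 is uncertain: a retrogene, Eno1b, matches the Eno1 transcript at 99.5% over 1652 bases and took 35.9% of the counts of both, and with these counts added the adjusted p of Eno1 was 0.0571. With 1 library left out of the 12, Eno1 passed only without wild-type well 2 or 5, and its highest adjusted p was 0.091. Eno1b itself averaged 948 ± 79.8 CPM in ChR2 wells and 665 ± 227 CPM in wild-type wells (SD, n = 6 each), with edgeR adjusted p of 0.062 over 12 libraries and 0.00013 over 10. Eno3, the muscle form, averaged 1309 ± 165 CPM in ChR2 wells and 1154 ± 379 CPM in wild-type wells (SD, n = 6 each; edgeR adjusted p = 0.535, and 0.913 over 10 libraries). Pkm, which makes pyruvate and ATP, had 2930, 3423 and 3791 CPM in ChR2 wells, against 2158, 2663 and 3858 CPM in wild-type wells. Its wild-type wells 2 and 5, at 3858 and 3221 CPM, were the highest of their line, and the remaining 4 lay below every ChR2 well. The log2 fold change of Pkm was 0.26 ± 0.16 (adjusted p = 0.252) over 12 libraries and 0.46 ± 0.12 (adjusted p = 0.008) over 10. Counts per gene do not separate the splice forms M1 and M2 of Pkm.

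At the fate of pyruvate, 2 of 3 members rose in both fits, where 14.0% of all genes rose over 12 libraries and 18.9% over 10. Ldha, the lactate dehydrogenase subunit that favours lactate formation, had 1701, 1914 and 2078 CPM as lowest, median and highest in ChR2 wells, against 935, 1342 and 1433 CPM in wild-type wells, with no overlap. It was 1.54-fold higher over 12 libraries (log2 0.62 ± 0.15, adjusted p = 0.0071) and 1.50-fold over 10 (adjusted p = 0.00325). Pdk1, the kinase that inhibits pyruvate dehydrogenase, had 401, 447 and 487 CPM in ChR2 wells, against 206, 285 and 384 CPM in wild-type wells, again with no overlap. Pdk1 was 1.51-fold higher over 12 libraries (log2 0.59 ± 0.15, adjusted p = 0.00953) and 1.59-fold over 10 (adjusted p = 0.0025). Ldhb, the heart-type subunit, averaged 28.1 ± 6.89 CPM in ChR2 wells and 23.7 ± 7.92 CPM in wild-type wells (SD, n = 6 each; edgeR adjusted p = 0.465).

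**Figure D3:**
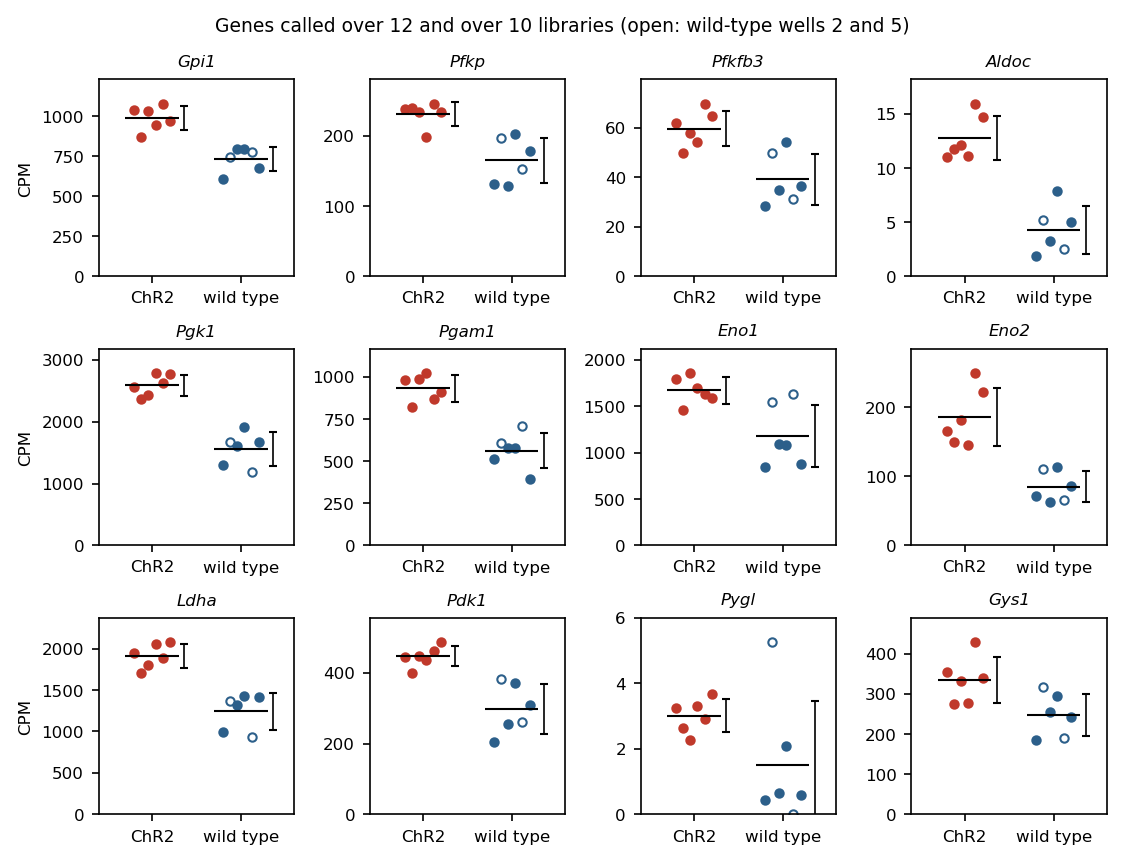
Points are the CPM of single wells for the 12 members called in both fits, ChR2 wells at the left of each panel; lines are means, bars are SD, and open points are wild-type wells 2 and 5. The ranges of the lines do not overlap for Gpi1, Aldoc, Pgk1, Pgam1, Eno2, Ldha and Pdk1, and for Pygl the open point of well 2, at 5.25 CPM, lies above every ChR2 well.

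Among the 7 glycogen genes, 2 were called higher over 12 libraries and 3 over 10, Pygl among them in both fits. Leaving Pygl aside, only Gys1 was called over 12 libraries, and Gys1 and Pygb over 10. Over all genes 14.0% and 18.9% were called higher, so over 12 libraries this step stood near that share. Gys1, muscle glycogen synthase, had 276, 336 and 429 CPM as lowest, median and highest in ChR2 wells, against 185, 249 and 316 CPM in wild-type wells, and the groups overlapped in both fits. It was 1.36-fold higher over 12 libraries (log2 0.44 ± 0.16, adjusted p = 0.0482) and 1.38-fold over 10 (adjusted p = 0.0205). With 1 library left out of the 12, Gys1 passed in 4 of 12 fits, those without ChR2 well 2 or 4 or wild-type well 2 or 4, and its highest adjusted p was 0.113. Gbe1, the glycogen branching enzyme, averaged 86.7 ± 14.0 CPM in ChR2 wells and 75.2 ± 17.8 CPM in wild-type wells (SD, n = 6 each; edgeR adjusted p = 0.398).

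Glycogen phosphorylase releases glucose 1-phosphate and has muscle, liver and brain forms. Pygm, the muscle form and the main one here, had 186, 235 and 322 CPM as lowest, median and highest in ChR2 wells, against 169, 306 and 460 CPM in wild-type wells, with wide overlap. Its log2 fold change was -0.37 ± 0.23 (SE; edgeR adjusted p = 0.255), with a 95% interval of -0.87 to 0.13. Pygl, the liver form, was near the detection limit, at 2.26, 3.07 and 3.67 CPM in ChR2 wells, against 0, 0.616 and 5.25 CPM in wild-type wells. Wild-type well 5 had a count of 0, where a floor of 3 counts corresponds to 1.07 CPM, and well 2, where it corresponds to 3.94 CPM, held the highest value. The minimum of the filter was reached in 6 of 6 ChR2 wells, against 2 of 6 wild-type wells and 1 of the 4 kept in the 10 libraries. Pygl could thus enter the test only because it was high in ChR2 wells, and its fitted change is not given as a result. Pygb, the brain form, had 28.2, 30.2 and 36.7 CPM in ChR2 wells, against 18.0, 23.5 and 45.3 CPM in wild-type wells. Wild-type well 5 held the 45.3, and the 4 wild-type wells kept in the smaller fit lay below every ChR2 well. For Pygb the log2 fold change was 0.25 ± 0.19 (adjusted p = 0.335) over 12 libraries and 0.53 ± 0.11 (adjusted p = 0.00234) over 10.

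Phosphorylase kinase activates glycogen phosphorylase. Phka1, its muscle regulatory subunit, averaged 43.8 ± 12.6 CPM in ChR2 wells and 56.0 ± 8.80 CPM in wild-type wells (SD, n = 6 each; edgeR adjusted p = 0.164). ChR2 well 5 was the highest of its line at 64.7 CPM, and without it the log2 fold change was -0.46 with an edgeR adjusted p of 0.0458. Phkg1, the muscle catalytic subunit, averaged 2.15 ± 0.622 CPM in ChR2 wells and 2.50 ± 1.55 CPM in wild-type wells (SD, n = 6 each; edgeR adjusted p = 0.764).

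In the 9 members called over 10 libraries only, wild-type well 2 lay above all 4 of wells 1, 3, 4 and 6 in 9, and well 5 did in 6. The 4 wells also differed among themselves. Of the 21 members called over 10 libraries, well 1 was the lowest of the 4 in 15, well 4 was the highest in 16, and well 6 was the lowest in 3 and the highest in 0.

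**Figure D4:**
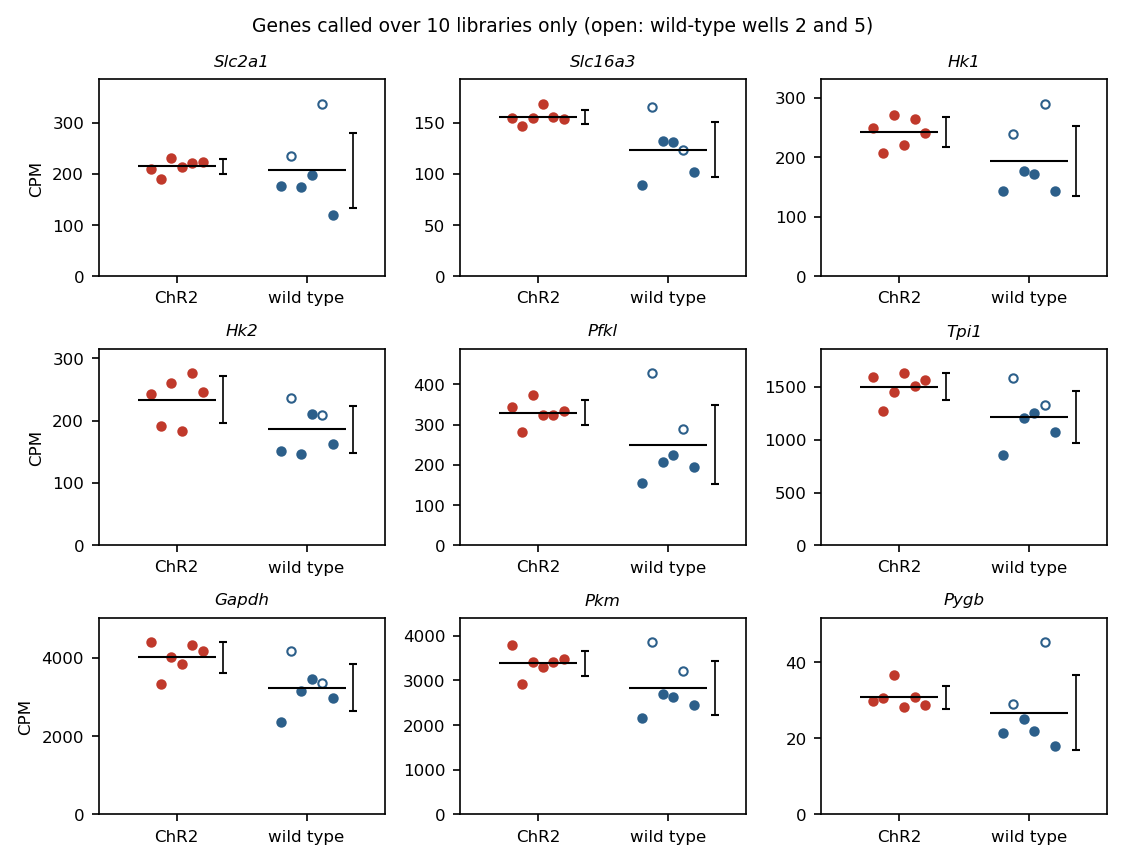
Points are the CPM of single wells for the 9 members called over 10 libraries only, ChR2 wells at the left of each panel; lines are means, bars are SD over 6 wells, and open points are wild-type wells 2 and 5. In every panel the open point of well 2 lies above the 4 filled wild-type points, and for Hk1, Pfkl, Tpi1, Pkm, Slc16a3 and Pygb the filled points all lie below the ChR2 points.

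Levels of different genes were compared per transcript length, as TPM, over the 6 ChR2 wells and the 4 wild-type wells without the 7SL excess. Gapdh was the most abundant member, at 5683 ± 798 TPM in ChR2 wells and 4415 ± 669 TPM in wild-type wells (SD, n = 6 and 4), followed by Aldoa and Pkm. Pygl was the least abundant, at 1.43 ± 0.195 TPM in ChR2 wells and 0.821 ± 0.715 TPM in wild-type wells (SD, n = 6 and 4). The 33 members together summed to between 20191 and 26544 TPM in ChR2 wells and between 15116 and 20606 TPM in these wild-type wells, which overlapped. They summed to 6369 TPM in wild-type well 2 and 12062 TPM in wild-type well 5.

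Isoform shares, each the TPM of 1 gene as a percent of its family's TPM in the same well, do not depend on the total of a library. Of 8 shares tested, 1 differed over 12 libraries and 5 over 10 (exact two-sided permutation test over wells, Benjamini-Hochberg adjusted over the 8, the smallest raw p being 0.00216 and 0.00476). Aldoc made up 0.274% ± 0.0442 of aldolase message in ChR2 wells and 0.104% ± 0.0476 in wild-type wells (SD, n = 6 each; exact permutation test, adjusted p = 0.0173), with no overlap. Over 10 libraries its adjusted p was 0.0127. Pfkm made up 55.6% ± 4.05 of phosphofructokinase message in ChR2 wells and 67.7% ± 5.90 in the 4 wild-type wells (SD; exact permutation test, adjusted p = 0.0127). All 6 ChR2 wells, at 51.0 to 59.4%, lay below these 4 wells, at 60.8 to 75.0%, but wild-type well 5 stood at 53.7% and well 2 at 80.5%, and over 12 libraries the adjusted p was 0.0606. Eno3 made up 42.6% ± 4.56 of enolase message in ChR2 wells and 52.4% ± 6.90 in the 4 wild-type wells (SD; exact permutation test, adjusted p = 0.0127). With wells 2 and 5, at 27.6% and 26.4%, the wild-type mean was 44.0% and the adjusted p 0.818. Since Eno1b shares most of its sequence with Eno1, the enolase share rests on how its reads were assigned.

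The share of Slc16a3 in Slc16a1 plus Slc16a3 was 69.9% ± 1.74 in ChR2 wells and 62.0% ± 4.94 in the 4 wild-type wells (SD; exact permutation test, adjusted p = 0.019). Over 12 libraries its adjusted p was 0.579. The share of Ldhb in lactate dehydrogenase was 1.82% ± 0.396 in ChR2 wells and 2.54% ± 0.365 in the 4 wild-type wells (SD; exact permutation test, adjusted p = 0.0457), and over 12 libraries the adjusted p was 0.11. The shares of Pgam2 (30.9% ± 6.40 in ChR2 wells and 44.8% ± 15.8 in the 4 wild-type wells; adjusted p = 0.0871), Pygm (90.0% ± 3.11 and 94.0% ± 2.70; adjusted p = 0.0871) and Hk2 (39.3% ± 1.95 and 41.3% ± 3.97; adjusted p = 0.31) did not pass the exact permutation test in either set of libraries. Slc2a4 made up 1.25 to 4.80% of Slc2a1 plus Slc2a4 in ChR2 wells and 0.241 to 3.88% in wild-type wells.

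**Figure D5:**
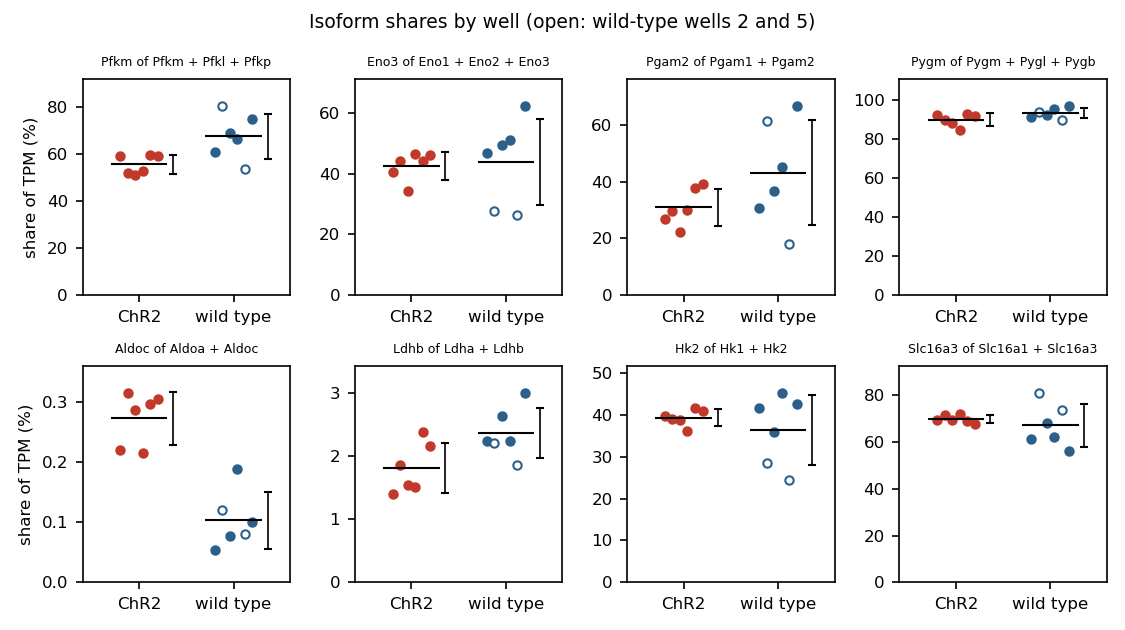
Each panel gives 1 isoform's share of its family's TPM in percent by well, ChR2 wells at the left; lines are means, bars are SD over 6 wells, and open points are wild-type wells 2 and 5. The filled wild-type points lie above every ChR2 point for Pfkm and Eno3, where the open points spread to both sides or fall below, and for Aldoc every ChR2 well is above every wild-type well.

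Other genes of glycolysis did not move together. Of 28 listed, 14 were tested, 3 rose and 2 fell in each fit, and the median log2 fold change was 0.04 over 12 libraries and 0.08 over 10. These counts are near the shares of all genes, of which 14.0% rose and 14.2% fell over 12 libraries. Over 10 libraries the shares were 18.9% and 16.4%. Bsg (basigin), the chaperone that brings monocarboxylate transporters to the membrane, averaged 1409 ± 156 CPM in ChR2 wells and 850 ± 159 CPM in wild-type wells (SD, n = 6 each; log2 0.73, edgeR adjusted p = 0.00276). Adpgk, an ADP-dependent glucokinase, rose by 0.35 on the log2 scale (adjusted p = 0.0264). Gpd1l, related to glycerol 3-phosphate dehydrogenase, averaged 43.7 ± 3.60 CPM in ChR2 wells and 94.9 ± 14.0 CPM in wild-type wells (SD, n = 6 each; log2 -1.11, edgeR adjusted p = 3.2e-05). Bpgm, which makes 2,3-bisphosphoglycerate, changed by -0.50 on the log2 scale (edgeR adjusted p = 0.016).

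Of 28 other glycogen genes 23 were tested. Over 12 libraries 3 rose and 2 fell, where 14.0% and 14.2% of all genes did. Over 10 libraries 4 rose and 1 fell, where 18.9% and 16.4% of all genes did. The median log2 fold change was 0.09 and 0.04. Epm2a, which encodes laforin, a glycogen phosphatase, averaged 45.4 ± 7.78 CPM in ChR2 wells and 20.4 ± 7.89 CPM in wild-type wells (SD, n = 6 each; log2 1.11, edgeR adjusted p = 0.00209). Its partner Nhlrc1, which encodes the ubiquitin ligase malin, averaged 0.939 ± 0.328 CPM in ChR2 wells and 3.53 ± 1.99 CPM in wild-type wells (SD, n = 6 each). Wild-type wells 2 and 5 were its highest, at 5.25 and 6.78 CPM, and the ChR2 wells lay at 0.377 to 1.37 CPM. Nhlrc1, called lower in both fits, passed the 12-library filter through the wild-type wells, so its call there is no evidence of a difference. Stbd1, a glycogen-binding protein, changed by 0.95 on the log2 scale (edgeR adjusted p = 0.00657). Phkg2, the phosphorylase kinase subunit best known from liver and testis, changed by -0.43 on the log2 scale (edgeR adjusted p = 0.0342, and 0.0653 over 10 libraries).

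The list on the entry of pyruvate into mitochondria holds carriers and enzymes of entry beside kinases that block it. Of 14 tested, 1 rose and 5 fell over 12 libraries, where 14.2% of all genes were called lower, and 1 rose and 7 fell over 10, where 16.4% were. The median log2 fold change was -0.16 and -0.24. The carrier genes Mpc1 and Mpc2 were not called in either fit (adjusted p = 0.707 and 0.83 over 12 libraries). Pcx, the pyruvate carboxylase that feeds the citric acid cycle, averaged 26.7 ± 4.47 CPM in ChR2 wells and 74.1 ± 30.3 CPM in wild-type wells (SD, n = 6 each; log2 -1.41, edgeR adjusted p = 0.000315). Wild-type well 2 held its highest value, 134 CPM, and over 10 libraries its log2 fold change was -1.15 (edgeR adjusted p = 3.46e-05). Pdhx, a structural part of the pyruvate dehydrogenase complex, changed by -0.56 on the log2 scale (edgeR adjusted p = 0.00293). The other pyruvate dehydrogenase kinases, relatives of Pdk1, went different ways. Pdk3 changed by 0.67 on the log2 scale (edgeR adjusted p = 0.00506). Pdk4 changed by -0.67 (edgeR adjusted p = 0.0151, and 0.00773 over 10 libraries), and Pdk2 had a log2 fold change of -0.02 (edgeR adjusted p = 0.966). Pdk2, Pdk4 and the carriers were named after their values were seen.

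Of 21 regulators of the pathway 20 were tested, 3 rose and 3 fell in each fit, and the median log2 fold change was -0.20 and -0.14. Such counts are near the shares of all genes, 14.0% higher and 14.2% lower over 12 libraries and 18.9% and 16.4% over 10. Myc, a transcription factor that drives growth and glycolytic genes, averaged 48.8 ± 4.43 CPM in ChR2 wells and 31.2 ± 3.96 CPM in wild-type wells (SD, n = 6 each; log2 0.66, edgeR adjusted p = 0.000913). Egln1, an oxygen-dependent hydroxylase that marks HIF for degradation and is itself a HIF target, changed by 0.65 on the log2 scale (edgeR adjusted p = 0.00151). Hif1an, which hydroxylates and restrains HIF, averaged 65.2 ± 9.59 CPM in ChR2 wells and 144 ± 49.6 CPM in wild-type wells (SD, n = 6 each; log2 -1.12, edgeR adjusted p = 0.000923). Wild-type wells 2 and 5 held its highest values, 224 and 186 CPM. Over 10 libraries its wild-type mean was 113 ± 11.4 CPM (SD, n = 4) and its log2 fold change -0.78 (edgeR adjusted p = 0.0002). Prkaa2, a catalytic subunit of the energy sensor AMPK, changed by -0.50 on the log2 scale (edgeR adjusted p = 0.0174). The third riser was Hif1a itself, named after its values were seen, with 0.62 (adjusted p = 0.0367).

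Of 21 known HIF targets outside glycolysis, all tested, 15 rose and 0 fell in each fit, where 14.0% and 18.9% of all genes rose. The median log2 fold changes of these targets were 0.83 over 12 libraries and 0.63 over 10. Their summed level ran from 7049 to 8349 CPM in ChR2 wells and from 3062 to 6164 CPM in wild-type wells. Ero1a, an oxidase of the endoplasmic reticulum, averaged 787 ± 112 CPM in ChR2 wells and 212 ± 137 CPM in wild-type wells (SD, n = 6 each; log2 1.89, edgeR adjusted p = 0.000548). Mxi1, a repressor of the Myc network, averaged 94.0 ± 7.62 CPM in ChR2 wells and 49.6 ± 10.2 CPM in wild-type wells (SD, n = 6 each; log2 0.90, edgeR adjusted p = 0.000326). Selenbp1, named after its values were seen, is among the 15 over 12 libraries only (edgeR adjusted p = 0.0141, and 0.0536 over 10). With 0 CPM in wild-type well 2, it passed the 12-library filter through the ChR2 wells, so its call is no evidence of a difference. The lists were drawn up with results of these data known, and a list of targets gives no measure of HIF activity.

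Markers of cell state also differed between the lines, and their part in the members' differences was not tested. For the counts below, 14.0% of all genes were called higher and 14.2% lower over 12 libraries, and 18.9% and 16.4% over 10. All 10 markers of proliferating cells rose in both fits, and their summed level was 710 to 952 CPM in ChR2 wells and 93.1 to 537 CPM in wild-type wells. Ube2c, which targets cyclins for destruction, changed by 2.02 on the log2 scale (edgeR adjusted p = 3.9e-05), and Ccnb2, a mitotic cyclin, by 1.89 (adjusted p = 0.000126). Of 14 myotube markers 0 rose and 4 fell over 12 libraries, and 0 rose and 5 fell over 10. The caveolin Cav3 changed by -1.35 on the log2 scale (edgeR adjusted p = 0.00043) and the myogenic factor Myog by -0.84 (adjusted p = 0.00218). The median log2 fold change of the myotube markers was only -0.18 in each fit. Over 12 libraries Ckm, Acta1, Myh3, Tnnt3, Tnnc2 and Mylpf lay above 0, at 0.19 to 0.58 and uncalled, and the remaining myotube markers below 0. Over 10 libraries Ckm, Acta1 and Myh3 stayed above 0, at 0.47, 0.11 and 0.45. Tnnt3, Tnnc2 and Mylpf did not, at -0.02, -0.14 and -0.00, and these genes were again uncalled. Of 7 fibroblast markers tested 4 rose in each fit, among them Pdgfrb at 0.97 (edgeR adjusted p = 0.000126). Pdgfra, Col1a1 and Dcn were called in neither fit, at -0.27, -0.19 and 0.62 over 12 libraries and -0.01, 0.23 and 0.38 over 10. The fibroblast markers together summed to 2851 to 3482 CPM in ChR2 wells and 766 to 3234 CPM in wild-type wells. Fmod, also among the 4, averaged 8.11 ± 2.91 CPM in ChR2 wells (SD, n = 6) and lay at 0 to 1.57 CPM in wild-type wells. It passed the filter on low counts through the ChR2 wells, so its call is no evidence of a difference. Of 4 neuronal markers 2 were tested and both rose, Syn1 by 1.13 (adjusted p = 0.000864) and Tubb3 by 0.67 (adjusted p = 0.0359) on the log2 scale, and the other 2 never exceeded 3 counts. Markers of adipocytes and endothelial cells were near 0, summing to at most 0.408 and 0.687 CPM in ChR2 wells and 0.415 and 0.581 CPM in wild-type wells. The 1 macrophage marker tested, Cd68, was not called (adjusted p = 0.303).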

How the data were processed

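RNA from 12 wells was sequenced as pairs of 50 bases, per the labels' protocols. These describe poly(A) selection with 14 PCR cycles, and ribosomal RNA depletion for low-input samples, which they do not name. Per gene and well, the authors deposited estimated counts, which can be fractions of a read, and TPM. The submitters' processing notes name Salmon, STAR, bedtools 2.25.0 and BWA 0.7.12-r1039 beside the builds GRCm39, mm10 and hg19. Their roles are not given in the sources used here. The only coordinates printed are those of the RefSeq promoter table (GRCm38.p6). Wells were grouped by genotype and numbered by title. No value column was left unused.

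Identifiers sharing a symbol were summed (147 symbols), estimated counts were rounded, genes were kept by filterByExpr with a minimum count of 10 and libraries were scaled by TMM. The test was edgeR 4.0.16's quasi-likelihood test in R 4.3.3, with line as the term and p-values adjusted over all genes tested; a call means adjusted p under 0.05. CPM are on TMM-scaled library sizes, and 3 counts were taken as the floor. The reads were amplified and carry no molecular identifiers, so floors cover counting error only. The fits and the exact test were tested on simulated data. Other settings were upper-quartile scaling and the size factors of DESeq2, no filter, the Wald test of DESeq2 1.42.0, limma 3.58.1 (voom with quality weights, and log2 TPM with pseudocounts of 1 and 0.1 and a filter of 1 TPM in 6 libraries), a replicate block, identifiers kept apart, counts of named copies added, and each library left out. Scaling, the block and TPM in the 10 libraries, and each further library left out of them, were chosen after seeing the data.

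The members, the other lists and the markers were chosen with earlier results of these data known. All members are accounted for; of the other lists, up to 2 rises and 2 falls of smallest p among called genes of at least 1 CPM are named, or the 2 most abundant tested genes where none was called. Eno1b was aligned with blastn 2.17.0 to GENCODE vM21 transcripts, and figures were drawn with matplotlib 3.10.9.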

Additional observations from a re-analysis of the deposited data

Results flagged for a closer look

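In each line the level of each of the 33 members, and each isoform share, was examined for a single well far from the other 5, by the gap to its nearest neighbour as a share of the whole range, against Dixon's 95% critical value for 6 wells. In all, 84 groups of wells were examined and 3 stood out; chance alone flags about 1 in 20 groups. Pfkp in ChR2 well 4 was the lowest of its line (ratio 0.773), at 198 CPM against 234 to 245 CPM in the other ChR2 wells. Pygb in ChR2 well 3 was the highest of its line (ratio 0.692), at 36.7 CPM against 28.2 to 30.8 CPM. Slc2a4 in wild-type well 2 was the highest of its line (ratio 0.669), at 7.87 CPM against 0.714 to 3.08 CPM in the other wild-type wells. That well has the lowest depth of the 12 libraries.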

How the results depend on the processing

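Leaving out wild-type wells 2 and 5 gave 21 members called against 12, and 5 isoform shares that differed against 1. Within these 10 libraries DESeq2 size factors and upper-quartile scaling also gave 21 and log2(TPM + 1) gave 17. Over 12 libraries limma voom called 20 members, and DESeq2 size factors, upper-quartile scaling, no filter, the DESeq2 Wald test, identifiers kept apart and added copies called 11 to 13. Limma on log2(TPM + 1), log2(TPM + 0.1) and unfiltered log2(TPM + 1) called 2, 1 and 1 members and 623, 271 and 425 genes in all. The TPM of a library sum to a fixed total. The excess of 7SL and other RNAs without a poly(A) tail in wild-type wells 2 and 5 therefore enters every TPM there. Its part in these counts was not tested. Replicate numbers did not pair the wells (same-number correlations of deviations -0.142 to 0.0977, and no well matched its own number best), and with the replicate block 9 members were called over 12 libraries and 19 over 10, 18 higher and 1 lower (Phka1, -0.42, adjusted p = 0.0486). With each library left out, the members called ranged from 9 to 19 (19 without wild-type well 2), all genes called from 2823 to 4123, the shares that differed from 1 to 2 (2 without wild-type well 5), and the members called over 10 libraries from 19 to 22.

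Directions turned only in members and shares that had not passed the test over 12 libraries: Pfkfb4, Aldoa and Slc16a1 had log2 fold changes of 0.09, 0.12 and -0.04 over 10 libraries, 0.08, 0.10 and -0.06 there with DESeq2 size factors, 0.14, 0.15 and -0.01 with upper-quartile scaling and 0.09, 0.14 and -0.01 with the replicate block. Aldoa, Eno3, Ldhb and Slc16a1 had 0.02, -0.03, -0.02 and -0.12 there on log2(TPM + 1). Over 12 libraries Aldoa had 0.01 with upper-quartile scaling, and voom gave 0.08 for Pfkfb4, 0.01 for Aldoa and 0.13 for Pgam2 and for Phkg1. On log2(TPM + 1), with and without the filter, Pfkm had 0.16, Pfkfb4 0.20, Aldoa 0.35, Pgam2 0.46 and Phkg1 0.18. On log2(TPM + 0.1) they had 0.16, 0.28, 0.36, 0.46 and 0.45, and Phka1 had 0.00. With each library left out, log2 fold changes ran from -0.14 to 0.12 for Aldoa, -0.19 to 0.04 for Pfkfb4, -0.37 to 0.09 for Pgam2, -0.32 to 0.21 for Phkg1 and -0.06 to 0.26 for Slc2a1, and the Eno3 share difference from -4.91 to 2.29 percentage points. The Hk2 share difference was -2.00 over 10 libraries and -0.51 on CPM. Except where stated, the causes were not tested. The floor of 3 counts was 3.94 CPM in wild-type well 2, above the levels of Pygl, Slc2a4 and Phkg1 in most wells.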
